A study of Mus musculus with 103 samples.

Results

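The Zfp genes are a name class of the mouse genome: genes called Zfp with a number, most of which encode proteins with C2H2 zinc fingers, short folds held by a zinc ion that bind DNA or RNA. The members were all genes of the expression table whose symbol was Zfp, a number and at most 1 letter, leaving out Zfp352, Zfp57, Zfp445 and Zfp42. The rule used names only, and 161 of the 7894 genes of the table met it. They were measured in single FVB mouse embryos of 2 cells, collected 28 hours after ICSI (intracytoplasmic sperm injection), a method that fertilises an oocyte with 1 injected sperm or sperm head. The sperm were taken either early on their way, from the rete testis, or at its end, from the cauda epididymis. Fathers were fed a diet named Control or one named Low Protein, shortened here to LP.

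Sperm heads gave 82 embryos. For Control fathers these were 20 with a cauda head and 22 with a rete head, and for LP fathers 17 with a cauda head and 23 with a rete head. Whole sperm gave 21 embryos, 9 with cauda and 12 with rete sperm, whose fathers' diet, Control, is stated in the file header but not in the labels. All oocyte donors ate the Control diet and all embryos grew in KSOM medium. The labels name neither father nor injection day, so p-values measure the spread between embryos only.

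Many Zfp proteins carry a KRAB domain beside their fingers. Such proteins bind chosen DNA sequences, often in retroelements, and recruit the co-repressor Trim28 and with it histone methylation. In the mouse, transcription of the embryo's genome begins strongly at the 2-cell stage while RNA stored in the oocyte is being degraded, so a transcript seen at this stage can be an old maternal one or a newly made one.

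Levels are in CPM, read counts scaled to a common depth, with zeros written as 0.1. The step between low values gives the depth, which was 529863 to 6058310 reads per embryo, and whole-sperm embryos were deeper (median 4091160 reads with cauda and 2806570 with rete sperm) than head embryos (1056550 to 1197680). All 10 oocyte markers and 21 of 25 markers of the 2-cell stage were in the table, with Zscan4d at group medians of 125.7 to 634.8 CPM. Of the markers of other cells that could be carried over, 3 of 13 for cumulus cells, 2 of 9 for sperm, 1 of 8 for testicular somatic cells and 1 of 6 for epididymis were among the genes analysed. Of these, the cumulus marker Amhr2 ran over group medians of 7.577 to 232 CPM and the testicular somatic marker Gata4 over 94.35 to 471.7 CPM. Unusually few genes reached 1 CPM in 4 embryos: cauda Control head embryo 19, rete Control head embryo 17, rete LP head embryo 11 and cauda whole-sperm embryo 5.

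Embryos of 1 age differ in how far they have come. Each embryo was given an index, the mean log2(CPM + 1) of 82 ribosome biogenesis genes, which the embryo transcribes, minus that of 73 genes with stored maternal transcripts. Neither list holds a Zfp gene. A higher index goes with more ribosome biogenesis RNA and less maternal RNA. The index slope of a gene is its change in log2(CPM + 1) per unit of index among embryos of the same group. A gene is called rising where its slope in head embryos was above 0 at a limma adjusted p under 0.05, and maternal-like where it was below 0. These names describe differences between embryos of 1 age, since no time course was measured, and the origin of the RNA was not measured.

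The promoters below show the sequence of members at both ends of the slope order. They belong to the 3 rising and the 3 maternal-like genes of largest slope that have a promoter in the RefSeq table (GRCm38.p6, the assembly also called mm10), each running from 250 bases before to 50 bases after the start, printed 5′ to 3′ on the strand of the gene. They lie at chr8:71922575-71922874 (plus strand) for Zfp617, chr8:111643193-111643492 (plus) for Zfp1, chr13:55105072-55105371 (plus) for Zfp346, chr17:22423952-22424251 (plus) for Zfp946, chr5:104859978-104860277 (minus) for Zfp951 and chr13:67500473-67500772 (minus) for Zfp58. Capitals mark matches to the motifs searched on both strands.
Zfp617: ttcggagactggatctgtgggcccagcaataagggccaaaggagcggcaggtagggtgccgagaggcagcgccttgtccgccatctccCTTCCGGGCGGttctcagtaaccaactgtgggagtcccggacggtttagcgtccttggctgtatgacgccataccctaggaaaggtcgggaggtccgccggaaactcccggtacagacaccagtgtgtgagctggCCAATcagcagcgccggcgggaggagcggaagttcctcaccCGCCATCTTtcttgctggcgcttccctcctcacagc
Zfp1: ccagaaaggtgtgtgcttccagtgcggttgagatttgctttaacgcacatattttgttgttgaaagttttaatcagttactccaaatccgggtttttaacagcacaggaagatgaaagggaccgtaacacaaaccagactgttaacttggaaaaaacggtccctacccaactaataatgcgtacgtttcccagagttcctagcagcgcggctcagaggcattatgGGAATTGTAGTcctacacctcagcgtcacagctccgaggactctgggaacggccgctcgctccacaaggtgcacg
Zfp346: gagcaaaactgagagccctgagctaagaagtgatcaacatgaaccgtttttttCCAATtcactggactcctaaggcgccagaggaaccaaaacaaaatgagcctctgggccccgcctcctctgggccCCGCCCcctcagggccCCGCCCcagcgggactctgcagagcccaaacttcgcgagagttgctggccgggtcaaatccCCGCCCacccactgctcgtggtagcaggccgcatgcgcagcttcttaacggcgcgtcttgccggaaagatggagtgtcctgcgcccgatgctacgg
Zfp946: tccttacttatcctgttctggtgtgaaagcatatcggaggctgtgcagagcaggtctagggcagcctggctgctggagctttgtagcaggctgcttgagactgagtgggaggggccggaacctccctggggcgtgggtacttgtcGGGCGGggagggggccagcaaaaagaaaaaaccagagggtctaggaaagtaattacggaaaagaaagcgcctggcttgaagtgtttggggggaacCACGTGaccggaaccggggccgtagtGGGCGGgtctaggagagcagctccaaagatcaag
Zfp951: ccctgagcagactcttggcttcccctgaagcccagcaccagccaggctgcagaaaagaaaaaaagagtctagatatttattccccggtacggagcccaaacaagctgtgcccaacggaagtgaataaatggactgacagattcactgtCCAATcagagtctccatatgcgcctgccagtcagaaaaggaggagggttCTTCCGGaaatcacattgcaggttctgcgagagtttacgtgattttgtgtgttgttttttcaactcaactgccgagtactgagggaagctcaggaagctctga
Zfp58: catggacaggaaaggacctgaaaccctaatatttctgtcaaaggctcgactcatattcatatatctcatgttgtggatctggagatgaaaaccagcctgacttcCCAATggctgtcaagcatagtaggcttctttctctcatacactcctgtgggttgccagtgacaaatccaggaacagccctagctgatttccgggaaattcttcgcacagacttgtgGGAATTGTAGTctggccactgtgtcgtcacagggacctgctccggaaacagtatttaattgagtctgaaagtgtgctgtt

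The motifs searched were the ETS site CCGGAAG, the GC box GGGCGG, the CCAAT box CCAAT, the NRF1 site, the CRE TGACGTCA, the E box CACGTG, the YY1 site AANATGGCG, the ZNF143 site, the homeodomain site GGATTA, the NR5A2 site AAGGTCA, the DUX site and the TATA box TATAAA. In Zfp617 the ETS and GC box matches overlap and form 1 run of capitals. Zfp1, which is rising, and Zfp58, which is maternal-like, hold the same ZNF143 match, which 2.82% of the 6089 promoters of table genes hold. A RefSeq promoter was given for 138 of the 161 members. The YY1 letters were found in 9 of 62 promoters of rising genes (14.5%) and in 1 of 36 of maternal-like genes (2.78%). They were also in 4 of 40 of members called in neither direction (10%) and in 6.4% of those of table genes. In the same order the CCAAT letters were found in 53.2%, 47.2%, 50% and 40.4%, and the GC box in 58.1%, 47.2%, 50% and 65.6%. The ETS letters were found in 19.4%, 27.8%, 22.5% and 20.5%. The shares given are descriptions and were not tested, and those of the other motifs are left out.

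In the 82 head embryos 75 of the 161 Zfp genes were rising, 39 were maternal-like and 47 passed in neither direction. Over all 7894 genes 73.8% passed, 41.9% rising with the index and 31.9% falling, so the Zfp genes split in much the same way as the table as a whole. Their median slope was 0.14, against 0.05 over all genes. Of the rising genes 68 had a positive slope within each of the 4 head groups, and of the maternal-like genes 31 had a negative slope within each. The classes were called from these same embryos, so these signs are no separate evidence for them. The genes just inside the threshold were Zfp566 (0.18) and Zfp597 (-0.16), and those just outside were Zfp280d (-0.11) and Zfp955b (0.19).

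**Figure D1:**
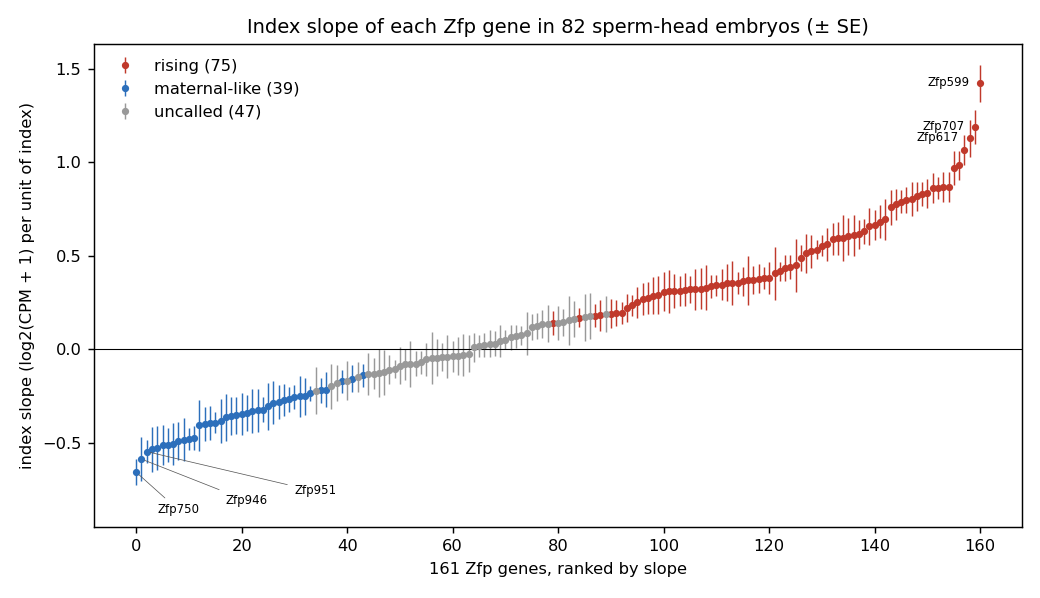
Index slope of each of the 161 Zfp genes in 82 sperm-head embryos, in log2(CPM + 1) per unit of index, ranked; bars are standard errors and colours give the class. The order runs from Zfp750 at -0.66 to Zfp599 at 1.42, with 75 rising and 39 maternal-like genes.

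Zfp599, a KRAB zinc-finger gene at chr9:22244164-22259895, had the steepest rise. Its level ran from 0.1 over a median of 196.7 to 469.5 CPM in cauda Control, from 0.1 over 257.4 to 522.1 in cauda LP, from 0.1 over 109.3 to 375.6 in rete Control and from 0.1 over 142.7 to 417.3 in rete LP head embryos. Each head group thus held at least 1 embryo with no read of it beside embryos of high level. Its slope was 1.42 ± 0.10 (SE, 82 embryos, limma adjusted p = 8.5e-24). In whole-sperm embryos it lay lower, at medians of 2.323 CPM for cauda and 21.85 CPM for rete sperm.

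Zfp707 (chr15:75969123-75975868), also with a KRAB pattern, was the member of highest level per length, at 280.9 CPM per kb over head embryos. Its group medians in head embryos were 462.5 to 532.1 CPM, with lowest embryos at 0.1 to 16.5 CPM, and its slope was 1.19 ± 0.09 (adjusted p = 3.8e-21). The next largest slopes were those of Zfp617 (1.13), Zfp1 (1.07), Zfp623 (0.98), Zfp346 (0.97), Zfp239 (0.87) and Zfp775 (0.87). Zfp346 encodes JAZ, a protein whose fingers bind double-stranded RNA, and Zfp239 encodes MOK2, which binds both RNA and DNA. Zfp617 was recorded in fractions of a read in 94 embryos of all groups, so its reads may be shared with other genes.

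The maternal-like end was shallower. Zfp750 (chr11:121510976-121519342), known from keratinocytes as a regulator of epidermal differentiation, ran from 3.875 over a median of 44.47 to 373.5 CPM in cauda Control and from 8.159 over 106.8 to 495.7 CPM in rete Control head embryos. In the LP groups its medians were 46.24 CPM for cauda and 56.5 CPM for rete. Every head embryo held some of it, and its slope was -0.66 ± 0.07 (adjusted p = 4.9e-14). Next came Zfp946 (-0.59), Zfp951 (-0.55), Zfp58 (-0.54), Zfp420 (-0.51), Zfp385a (-0.51), Zfp69 (-0.51) and Zfp846 (-0.49). Zfp385a encodes an RNA-binding cofactor of p53. Zfp946 and Zfp951 were in fractions of a read in 79 and 101 embryos.

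**Figure D2:**
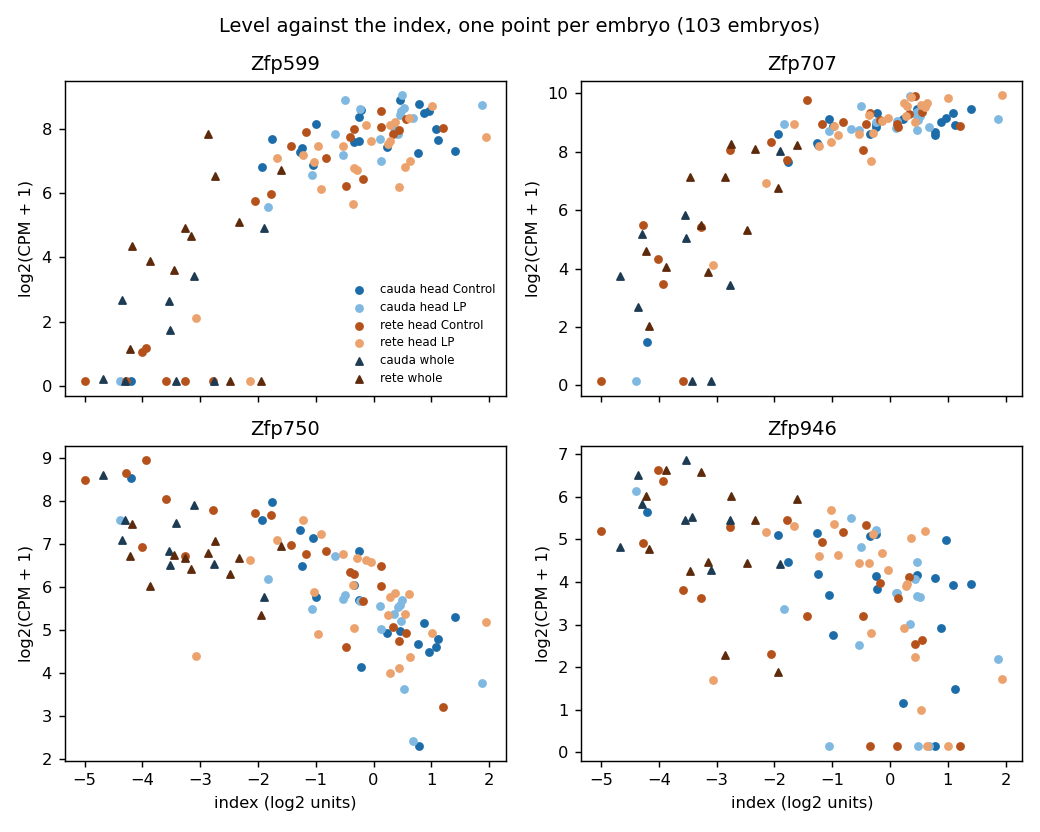
Level, as log2(CPM + 1), against the index for the 2 Zfp genes of largest positive and the 2 of largest negative slope, 1 point per embryo (circles are head and triangles whole-sperm embryos). Zfp599 and Zfp707 climb from zero at the lowest indices and then flatten, while Zfp750 and Zfp946 fall towards the highest.

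The plot of level against index shows that rising genes did not share 1 shape. Of the 82 head embryos 12 had an index below -2, and 8 of these were rete Control embryos. The slopes were computed again without these 12, a choice made after seeing the data. The number of rising genes then fell from 75 to 47, while 45 were maternal-like (over all genes 33.2% rose and 32.9% fell). All 47 were among the 75, and 10 of the 75 turned to a negative slope. Of these 10, Zfp791 (-0.40, adjusted p = 1.6e-05), Zfp367 (-0.34, adjusted p = 0.0015) and Zfp217 (-0.18) passed as falling and are among the 45, named after their values were seen. Of the 39 maternal-like genes 31 again passed with a negative slope. The slope of Zfp599 dropped to 0.44 ± 0.09 and that of Zfp707 to 0.31 ± 0.06, both still past the threshold. That of Zfp775 dropped to 0.15 ± 0.09 (adjusted p = 0.107). By contrast, Zfp346 kept 0.94 ± 0.14 and Zfp936 kept 0.82 ± 0.08, and Zfp420 steepened to -1.05 ± 0.17. The steepest rise among the remaining 70 embryos was in Zfp672, at 1.20 ± 0.12 against 0.66 in all head embryos.

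The members were also grouped by known role, and the counts below stand beside 41.9% of all genes rising and 31.9% falling. Of 11 measured genes tied to pluripotency or promoter control 8 were rising and 2 maternal-like. Without the 12 embryos of low index 6 rose and 3 fell, where 33.2% of all genes rose and 32.9% fell. Zfp143, an activator bound at many promoters, had a slope of 0.79 ± 0.06 and a mean of 238.5 CPM in head embryos. Zfp410, an activator of the chromatin remodeller gene Chd4, had 0.86 ± 0.06, and Zfp335, 0.82 ± 0.08. Zfp296, which binds Klf4, Zfp217, a co-repressor subunit, and Zfp131, a BTB-domain factor, had slopes of 0.34, 0.32 and 0.55. Without the 12 embryos of low index the slope of Zfp296 was -0.03 (adjusted p = 0.746), that of Zfp217 turned to -0.18 (adjusted p = 0.0364) and that of Zfp131 was 0.16 (adjusted p = 0.0177).

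Of 9 members listed as acting on RNA or ribosomes 6 were rising and 2 maternal-like, and without the 12 embryos of low index 4 rose and 2 fell. The shares over all genes are those just given. Zfp622, a factor for maturation of the large ribosomal subunit, had medians of 325.3 to 421.6 CPM in the 4 head groups against 29.84 CPM in cauda and 107.7 CPM in rete whole-sperm embryos, and its slope was 0.68 ± 0.09. Without the 12 embryos of low index it was 0.04 (adjusted p = 0.723). Zfp706, a repressor of Klf4 in embryonic stem cells, had the highest mean of all members, 670.5 CPM in head embryos. It was maternal-like at -0.24 ± 0.04. It is 1 of the 2 maternal-like genes counted in this list, though the role given here is not one on RNA or ribosomes. It was in fractions of a read in 100 embryos. Zfp106, an RNA-binding protein needed in motor neurons, had 0.19 ± 0.06, and Zfp598, a ubiquitin ligase for collided ribosomes, had 0.02 (adjusted p = 0.768).

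Only 5 members of the list of regulators of retroelements and imprinted genes were in the table. Zfp568, a repressor of a placental Igf2 promoter, was rising at 0.60 ± 0.10, as was Zfp708, a silencer of a retroelement family, at 0.69 ± 0.11. Zfp932, a silencer of endogenous retroviruses, was maternal-like at -0.48 ± 0.06. Zfp600 had 0.03 and Zfp110 0.17, and neither passed. Zfp932 and Zfp600 were in fractions of a read in 100 embryos and in every embryo. Without the 12 embryos of low index Zfp568 had 0.29 (adjusted p = 0.0662), and 1 of the 5 rose and 1 fell.

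The partners of KRAB proteins were also mixed. Of the 35 co-repressor genes measured 18 (51.4%) were rising and 9 (25.7%) maternal-like, near the 41.9% and 31.9% of all genes. Trim28, the scaffold that KRAB domains bind, had a slope of 0.60 ± 0.06 and Cbx3, a heterochromatin protein, 0.60 ± 0.07. Cbx1 had -0.39 ± 0.07, and the histone methyltransferase gene Setdb1 had 0.03 (adjusted p = 0.563). Of 31 zinc-finger genes with other names (Zbtb, Zkscan, Zscan, Prdm) 18 (58.1%) were rising and 5 (16.1%) maternal-like, from Zbtb43 at 0.96 to Zbtb46 at -0.53.

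The proteins of the members were compared by 2 patterns read from the longest open reading frame of GENCODE transcripts, found for 160 members. A finger was counted as cysteine, 2 to 4 residues, cysteine, 12 residues, histidine, 3 to 5 residues and histidine. The median was 10 fingers and the most was 33, in Zfp142, while 5 members held none. Letters of a KRAB A box were found in 80 members and not in 80. Of those with the KRAB letters 33 (41.3%) were rising and 22 (27.5%) maternal-like, and of those without them 41 (51.3%) and 17 (21.3%). Their median slopes were 0.08 and 0.17, and their median levels in head embryos were 35.9 and 55.9 CPM. Over all genes 41.9% were rising and 31.9% falling. The difference between members with and without the KRAB letters was not tested.

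Related Zfp genes share stretches of sequence, and the table bears on this. Of the 161 members 55 (34.2%) were in fractions of a read in most embryos, against 15.1% of all genes, counted with a tolerance of 0.004 reads. Of members with the KRAB letters 39 of 80 were so, and of those without 16 of 80. For these genes reads may have been divided with near copies, and the levels are uncertain. Among genes named for group differences Zfp943, Zfp936, Zfp825, Zfp142 and Zfp433 were so in 100, 101, 96, 85 and 84 embryos. Such members made up 24 of the 75 rising, 15 of the 39 maternal-like and 16 of the 47 other members.

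Members lay on 20 chromosomes, and 62 of them in 13 runs of at least 3 genes no more than 500000 bases apart. The longest, at chr17:21008941-22456689, held 13 genes, of which 2 were rising and 5 maternal-like, with slopes from -0.59 to 0.56, and 8 of them were in fractions of a read. The run at chr7:29768552-30107622 held 10 genes, of which 4 were rising and 5 maternal-like, from -0.53 to 0.60. Zfp420 (-0.51) and Zfp568 (0.60) both lie within it. Over all 13 runs 30 of the 62 genes were rising and 18 maternal-like. Of all members 46.6% were rising and 24.2% maternal-like, and of all genes 41.9% were rising and 31.9% falling.

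Whole-sperm embryos took no part in sorting the genes and give a separate look at them. Zfp1 and Zfp617 were too low there to be tested. Of 159 members tested 22 had a positive and 1 a negative slope past the threshold (over all genes 13.7% and 3.93%). Of the rising genes 63 of 73 had a positive slope and 20 passed, and of the maternal-like genes 29 of 39 had a negative slope and 1 passed. Over all genes 4661 of 7782 had a positive slope here. How often all genes called in heads kept their sign is not given, so the agreement cannot be called particular to Zfp genes. Zfp775 had 2.41 ± 0.34 (adjusted p = 1.1e-04), Zfp566 1.60 ± 0.36, Zfp574 1.5 ± 0.22 and Zfp280c 1.35 ± 0.34. The maternal-like gene that passed was Zfp957, at -0.40 ± 0.14 (adjusted p = 0.0498). Without cauda embryo 5, low in detected genes, 14 passed as positive and 0 as negative. In these 21 embryos the index also moved with the number of genes at 1 CPM (Pearson r = 0.56, permutation p = 0.0047, adjusted over 4 relations 0.019; Spearman rho = 0.61, permutation p = 0.0039; r = 0.53 without the 2 farthest embryos). With that number as a covariate, chosen after seeing the data, 9 passed as positive and 1 as negative, and its part in the slopes was not tested further. The shares of all genes with this covariate, or without cauda embryo 5, are not given here. In head embryos the same r was 0.16 (permutation p = 0.148; rho = -0.09, permutation p = 0.433; r = 0.14 without the 2 farthest embryos).

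**Figure D3:**
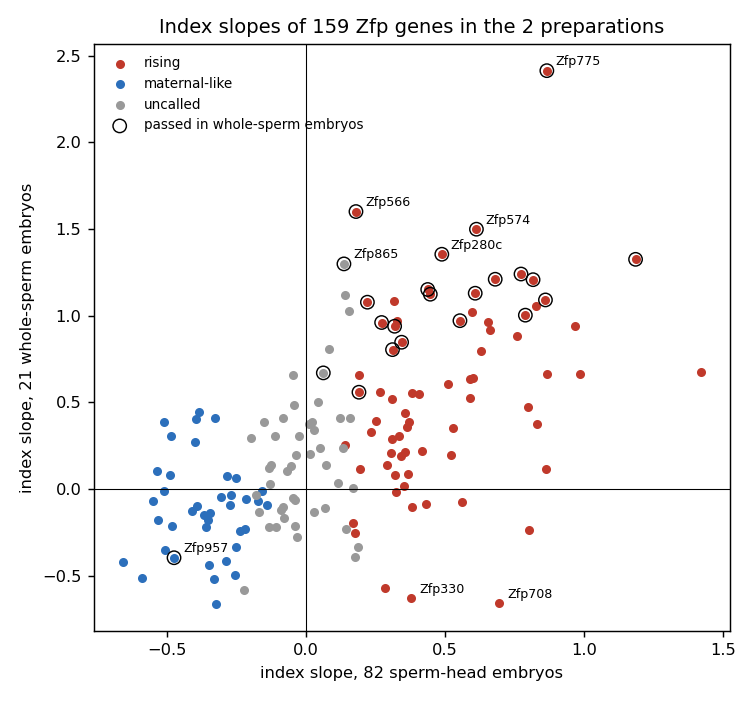
Index slope in 82 sperm-head embryos (x axis) against that in 21 whole-sperm embryos (y axis), both in log2(CPM + 1) per unit of index, for 159 Zfp genes; black rings mark the 23 that passed in whole-sperm embryos. In 121 of 159 genes the 2 slopes had the same sign, a share not given here for all genes.

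The difference between the 2 slopes passed for 5 members. Over all genes 1.7% passed as positive and 0.963% as negative, 2.66% in all. It was positive, with the steeper rise in whole-sperm embryos, for Zfp775 (1.55 ± 0.31, adjusted p = 0.0019), Zfp566 (1.42 ± 0.32, adjusted p = 0.0065) and Zfp865 (1.16 ± 0.34, adjusted p = 0.0448). It was negative for Zfp708 (-1.35 ± 0.41, adjusted p = 0.048) and Zfp330 (-1.01 ± 0.28, adjusted p = 0.034). Whole-sperm embryos spanned indices from -4.68 to -1.60 and head embryos from -5.0 to 1.95, so the slopes cover different ranges. Without the 12 head embryos of low index the head slopes of these genes were 0.15 for Zfp775, -0.21 for Zfp566 (adjusted p = 0.12), -0.55 for Zfp865 (adjusted p = 8.3e-04), 0.90 for Zfp708 and 0.68 for Zfp330.

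Diet was compared to ask whether the father's food alters embryonic RNA. No Zfp gene passed in cauda heads, 17 LP against 20 Control embryos (limma, 0% of all genes; 1 member had an unadjusted p under 0.05). The smallest p values were for Zfp943 (30.03 CPM in Control and 17.04 in LP, log2 fold change -0.88 ± 0.43, adjusted p = 0.9995) and, among higher genes, Zfp777 (17.61 and 26.02 CPM, 0.74 ± 0.42, adjusted p = 0.9995). In rete heads, 23 LP against 22 Control embryos, no member passed either, where 1.49% of all genes did (0.393% higher and 1.1% lower). There 30 members had an unadjusted p under 0.05. The shares of all genes at that unadjusted cut-off are not given here. The counts of members at it, here and in cauda heads, therefore have no baseline. Zfp407, a regulator of adipocyte genes, had a mean of 42.7 CPM in Control and 78.09 in LP embryos (1.56 ± 0.48, adjusted p = 0.0665), and 17 of the 23 LP embryos lay above the median of Control. Zfp597 had 49.39 and 32.08 CPM (-0.91 ± 0.29, adjusted p = 0.0744), with 17 of 23 below it. Zfp407 passed under 4 other settings, with adjusted p from 0.0177 to 0.0454: median-of-ratios scaling, leaving out the embryos low in detected genes, and log2 reads or detected genes as a covariate. Zfp617 and Zfp869 passed under the same 4, with adjusted p from 0.0275 to 0.049 and from 0.0253 to 0.0461, and are otherwise at 0.0697 and 0.0737. Zfp597 passed under median-of-ratios scaling (0.0482) and with detected genes as a covariate (0.0418). The shares of all genes that passed under these other settings are not given here, so these calls have no baseline.

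Rising and maternal-like genes leaned opposite ways in the rete comparison. Of the 75 rising genes 67 were higher in LP embryos, with a median log2 fold change of 0.48, and of the 39 maternal-like genes 33 were lower, with a median of -0.34. The index moved with these groups, at -1.49 ± 1.85 (SD, n = 22) in rete Control and -0.28 ± 1.10 (n = 23) in rete LP embryos, against -0.29 ± 1.38 (n = 20) and -0.22 ± 1.35 (n = 17) in cauda Control and LP embryos. Since the classes were made from slopes on this index in these embryos, the lean is no separate evidence of an effect of diet. The test of a different diet effect in rete and cauda heads passed for no member (0.19% of all genes). At an unadjusted p under 0.05 there were 5 members, a count given without the share of all genes. The smallest p of this test was for Zfp433 (1.60 ± 0.59, adjusted p = 0.414) in the positive and for Zfp597 (-1.03 ± 0.44, adjusted p = 0.491) in the negative direction.

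The source of the sperm was compared next, since rete and cauda sperm differ in the RNA they carry. No member passed in Control heads (0.038% of all genes), in LP heads (0.076%) or in whole sperm (0%). At an unadjusted p under 0.05 there were 28, 7 and 17 members. The shares of all genes at that cut-off are not given here, so these counts have no baseline. In Control heads Zfp109 had 14.9 CPM in rete and 5.049 in cauda embryos (1.83 ± 0.51, adjusted p = 0.167), with 19 of 22 rete embryos above the cauda median, and Zfp825 had 16.22 and 32.18 CPM (-1.43 ± 0.45, adjusted p = 0.167). In LP heads Zfp30 had 24.32 CPM in rete and 7.229 in cauda embryos (1.33 ± 0.51, adjusted p = 0.428), and Zfp322a had 24.92 and 41.94 CPM (-1.16 ± 0.45, adjusted p = 0.441). In whole-sperm embryos Zfp664 had 121.7 CPM in rete and 219.3 in cauda embryos (-0.94 ± 0.27, adjusted p = 0.524), with all 12 rete embryos below the cauda median, and Zfp142 had 121 and 65.35 CPM (0.97 ± 0.34, adjusted p = 0.527). Of the 75 rising genes 67 were lower in rete than in cauda Control embryos, a comparison that shares its rete Control embryos with the diet comparison above. The classes were made from index slopes in these embryos, and the mean index was -1.49 in rete and -0.29 in cauda Control embryos. This lean is therefore no separate evidence of an effect of source.

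**Figure D4:**
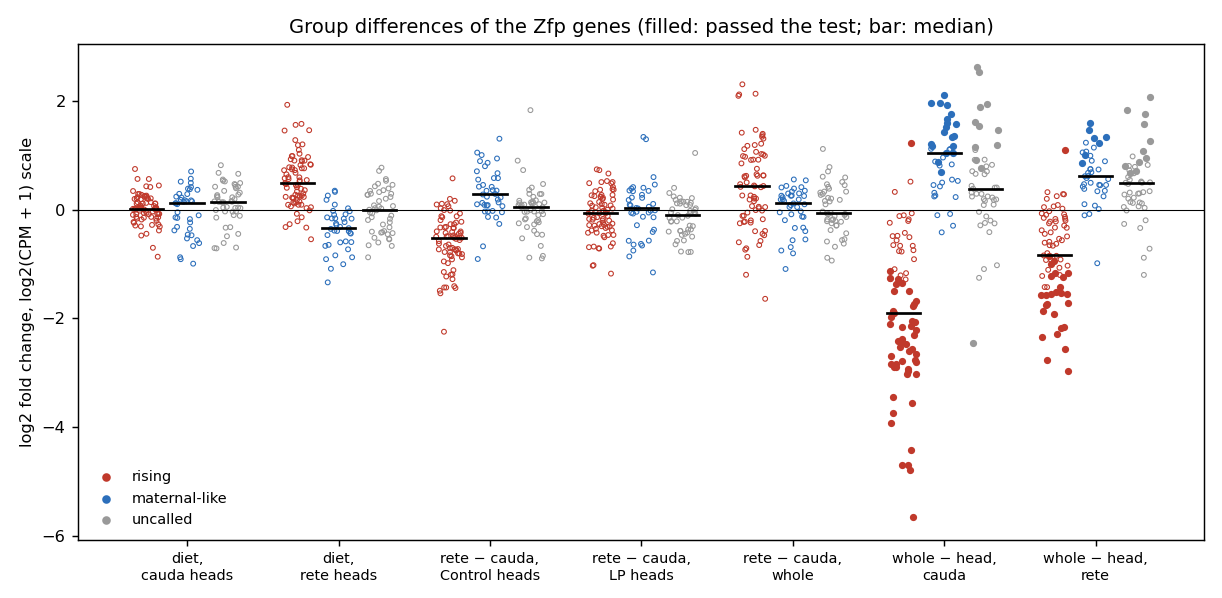
Difference between group means of log2(CPM + 1) for each Zfp gene in 7 comparisons of groups, by class; filled points passed the test and bars are medians. Filled points appear in the 2 comparisons of whole sperm with heads, where rising genes have medians of -1.91 (cauda) and -0.84 (rete).

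The largest differences lay between embryos made with whole sperm and with heads of Control males. In the cauda comparison, 9 against 20 embryos, 31 members were higher and 50 lower in whole-sperm embryos (over all genes 24.4% and 34.3%). In the rete comparison, 12 against 22, 19 were higher and 26 lower (14.1% and 19.5%, together 33.6%). Of the rising genes 49 were lower with cauda and 26 with rete whole sperm, and of the maternal-like genes 19 and 7 were higher. The index was lower in whole-sperm embryos, at -3.51 ± 0.87 (SD, n = 9) for cauda and -3.01 ± 0.84 (n = 12) for rete. The classes were made from slopes on this index, so the counts by class are no separate evidence of an effect of preparation. The shares among all rising or falling genes are not given here. With the index as a covariate 8 members passed in the cauda and 12 in the rete comparison, where the shares of all genes are not given here. That fit draws a straight line over indices that the groups share only in part. Cauda whole-sperm embryos ran from -4.68 to -1.90, and 1 of 20 cauda Control head embryos lay below -2. Rete whole-sperm embryos ran from -4.22 to -1.60, and 8 of 22 rete Control head embryos lay below -2. Calls kept or lost in that fit therefore cannot show whether a difference goes with the index, least of all in cauda embryos.

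Among the falls, Zfp775 (chr6:48602007-48621548) ran from 7.288 over a median of 263.6 to 450 CPM in cauda Control heads and from 0.1 over 10.72 to 148.4 CPM in cauda whole-sperm embryos. All 9 whole-sperm embryos lay below the head median, and the log2 fold change was -4.69 ± 0.71 (adjusted p = 4.8e-08). Zfp599 fell further (-5.65 ± 0.92), and Zfp1 (-4.79 ± 0.71) and Zfp707 (-4.69 ± 0.82) about as far. With the index as a covariate none of these 4 passed, at -1.51 for Zfp775 (adjusted p = 0.0773), -1.26 for Zfp599 (0.258), -1.26 for Zfp1 (0.0959) and -0.83 for Zfp707 (0.443). Zfp599 and Zfp707 climbed with the index and then flattened, which a straight line does not follow. What part of these falls goes with the index was not tested. Of the 161 members 2, Zfp936 and Zfp639, had cauda groups that did not overlap, against 0.545% of all genes (43 of 7894). By the test itself 58.7% of all genes passed in this comparison. They are named for this after their values were seen. Zfp936 ran from 4.13 to 105.9 CPM in whole-sperm and from 106.6 to 1326 CPM in head embryos, and Zfp639 from 0.1 to 11.36 and from 12.75 to 202.4 CPM. In rete embryos the falls were led by Zfp961, from a mean of 110.2 to 17.23 CPM (-2.96 ± 0.53, adjusted p = 2.2e-05), Zfp623 (-2.76 ± 0.62), Zfp1 (-2.56 ± 0.64) and Zfp7 (-2.35 ± 0.58), and there no member and no other gene was without overlap. With the index as a covariate Zfp639 passed in cauda embryos (-1.68, adjusted p = 0.0308) and Zfp936 did not (-1.24, adjusted p = 0.0648). In rete embryos Zfp961 (-1.67) and Zfp623 (-1.30) passed, while Zfp1 (-0.89, adjusted p = 0.142) and Zfp7 (-1.11, adjusted p = 0.106) did not.

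Among the rises, Zfp957 (chr14:79212355-79247367) went from a mean of 139.6 to 517 CPM in the cauda comparison (2.10 ± 0.40, adjusted p = 5.5e-06), with all 9 whole-sperm embryos above the head median. Zfp316 went from 27.76 to 214.9 CPM (2.63 ± 0.53, adjusted p = 2.0e-05), Zfp109 from 5.049 to 26.11 CPM (2.52 ± 0.66) and Zfp420 from 36.66 to 89.47 CPM (1.95 ± 0.57). In the rete comparison Zfp316 went from 40.09 to 160.8 CPM (2.07 ± 0.48, adjusted p = 6.4e-04), Zfp12 from 30.15 to 89.94 CPM (1.82 ± 0.41), Zfp790 from 12.3 to 28.55 CPM (1.76 ± 0.55) and Zfp788 from 18.38 to 37.64 CPM (1.59 ± 0.53). Zfp12 and Zfp316 lie end to end on chromosome 5, 860 bases apart on opposite strands, and both were in fractions of a read in every embryo. The use of strand in counting is not given in the sources used here, so their levels cannot be told apart with certainty. Zfp316 also passed with the index as a covariate, at 2.08 ± 0.61 in cauda (adjusted p = 0.0199) and 1.81 ± 0.49 in rete embryos (adjusted p = 0.0086), as did Zfp12 (1.65) and Zfp790 (1.96) in rete embryos. The call was lost for Zfp957 (0.59, adjusted p = 0.325), Zfp109 (1.72, adjusted p = 0.14) and Zfp420 (0.43, adjusted p = 0.716) in cauda and for Zfp788 (1.06, adjusted p = 0.188) in rete embryos.

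**Figure D5:**
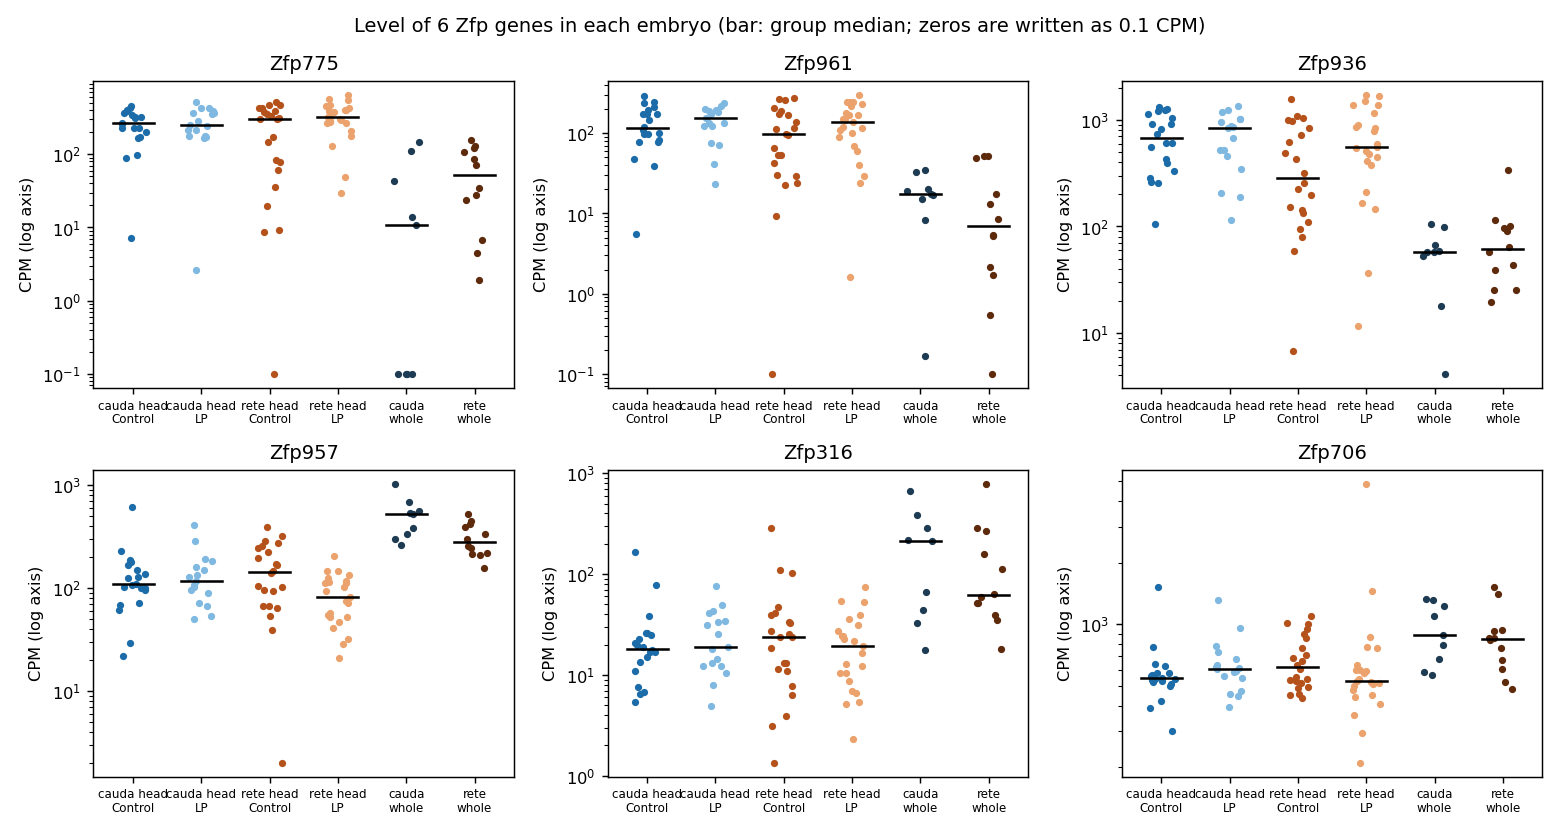
CPM on a log axis of 6 Zfp genes, chosen after their values were seen, in each embryo by group; bars are group medians. Zfp775, Zfp961 and Zfp936 are lower and Zfp957 and Zfp316 higher in whole-sperm embryos, while Zfp706 has medians of 525.6 to 881.8 CPM.

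The preparation cannot be told apart from what else differed between these sets. Whole-sperm embryos were sequenced deeper, and 7 of 10 oocyte markers were higher in the cauda and 2 of 10 in the rete comparison. All 10 oocyte markers are among the 73 maternal genes of the index, so their rise is not separate from the lower index. In the cauda comparison 2 of 3 cumulus markers were lower and 1 higher. There 1 of 2 sperm markers and the testicular somatic marker Gata4 were lower. Of 21 markers of the 2-cell stage 7 were higher and 7 lower in the cauda and 6 and 1 in the rete comparison. Over all genes 24.4% were higher and 34.3% lower with cauda, and 14.1% and 19.5% with rete sperm. Gata4 was itself rising in head embryos, with a slope of 0.83. The part of these differences in the results was not tested.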

How the data were processed

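Single embryos were lysed in TCL buffer and sequenced as Nextera cDNA libraries, per the labels' protocols. The submitters' processing notes name Bowtie and mm10. Versions, counting tool, annotation and strand setting are not stated there. The authors deposited 1 table, read as CPM from its values: columns sum to 92.08 to 98.15% of the total that CPM would give, and low values are multiples of a hundredth of 1 read. Of values under 60 reads a median of 86.4% were whole (79.9 to 89.1% over embryos, tolerance 0.001 reads), too few for a count model. The authors deposited beside it a sorting score per gene, at least 5 in every gene kept, so low genes had been removed beforehand. Every column was matched to a label.

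Groups came from the labels. Tests used limma 3.58.1 in R 4.3.3 (limma-trend, robust) on log2(CPM + 1) for genes reaching 5 CPM in 9 or more embryos, two-sided, with Benjamini-Hochberg adjustment over all genes tested and a threshold of 0.05. Fold changes on this scale understate those of low genes. All 82 head embryos, all 21 whole-sperm embryos or all 103 entered each fit. The fit was also run on simulated data with known changes, with noise drawn independently for each gene. The outcome is not given here, so the power of the tests is not stated. Correlations used 100000 permutations, two-sided. Python 3.11.15 with pandas 2.3.3 and scipy 1.17.1 did the rest. Positions are from RefSeq (GRCm38.p6), 160 members by accession and 1 by symbol.

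Genes named were the 8 largest called slopes per direction among genes averaging 10 CPM or more, the 4 largest called effects per direction in other comparisons (with no call, the smallest p per direction), up to 3 of highest mean per role list, and the 5 of highest CPM per kb (Zfp707, Zfp296, Zfp936, Zfp706 and Zfp622). Others were chosen after their values were seen. Members and lists were chosen with earlier results of these data known.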

Additional observations from a re-analysis of the deposited data

Results flagged for a closer look

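In the 9 cauda whole-sperm embryos 6 of the 50 named genes had 1 embryo far from the rest on the log2(CPM + 1) scale. Chance marks about 1 in 20 such groups. The gap to the nearest embryo, as a share of the whole range, was 0.638 for Zfp30 (embryo 6, at 0.1 CPM against a median of 15.68), 0.567 for Zfp385a (embryo 5, 0.1 against 21.02), 0.516 for Zfp407 (embryo 4, 0.489 against 19.88), 0.504 for Zfp788 (embryo 3, 4.999 against 28.11), 0.499 for Zfp825 (embryo 5, 35.96 against 10.04) and 0.608 for Zfp961 (embryo 5, 0.165 against 17.42). Embryo 5 is the one low in detected genes.

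The index slope differed between whole-sperm and head embryos, by a test of the difference itself, for Zfp775 (1.546), Zfp566 (1.420), Zfp330 (-1.008), Zfp865 (1.162) and Zfp708 (-1.354). Without the 12 head embryos of index below -2 the head slope was 0.15 for Zfp775 (0.87 with them), -0.21 for Zfp566 (0.18), -0.55 for Zfp865 (0.14), 0.90 for Zfp708 (0.69) and 0.68 for Zfp330 (0.38). The slope difference itself was not tested without them.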

How the results depend on the processing

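Of 129 recomputed counts of members past the threshold 114 were within 1.5 times the value reported. The number of rising genes was 47 without head embryos of index below -2. In whole-sperm embryos 23 members passed; 14 did without embryos low in detected genes, 7 with an index from the maternal list only and 10 with detected genes as a covariate. The slope difference, with 5 members, gave 2 at a pseudocount of 5, 10 under median-of-ratios scaling, 8 with the maternal list only, 2 with the ribosome biogenesis list only and 2 with the replicate block. Diet in rete heads, with 0 members, gave 4 under median-of-ratios scaling, 5 without embryos low in detected genes, 3 with log2 reads and 5 with detected genes as a covariate. With the index as a covariate, preparation gave 8 members in cauda and 12 in rete embryos. Apart from the limit on the index, the shares of all genes passing under these settings are not given here. The covariates of reads and detected genes and the limit on the index were chosen after seeing the data. The cause of these changes was not tested. Of 646 recomputed values of named genes 593 kept their direction and side of the threshold, 43 lost the call, 6 gained it and 4 changed sign: Zfp600 at -0.0292 under median-of-ratios scaling and -0.0005 with the replicate block (0.03 as reported), and, without embryos of low index, Zfp296 at -0.0274 and Zfp217 at -0.1767.

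Replicate numbers were not taken to pair embryos. Between cauda and rete Control heads 8 of 18 same-numbered pairs had deviations correlated above 0.1 (median 0.05). Between rete Control and LP heads 10 of 22 did (median 0.04). Pairs of unlike number were not compared, so this check cannot show whether a number marks embryos handled together. With the replicate block 67 genes were rising and 33 maternal-like. Near 1 read, counting error limits low members, most in head embryos.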
